A study of Mus musculus with 58 samples.

Results

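The genes described here are 39 mouse genes that type I interferon is known to induce, taken by symbol from the 3 deposited tables of RNA-seq counts. All 39 were among the 24940 genes listed for the age series, 28 were among the 10277 listed for the wild-type antisense experiment, and 32 were among the 10589 listed for the knockout antisense experiment. Every listed member also passed the filter on low counts. The members were grouped by role into 3 transcription factors, 5 nucleic acid sensors, 6 genes of the 2'-5' oligoadenylate synthetase (OAS) family, 3 IFIT genes, 8 other antiviral effectors, 3 genes of the ISG15 pathway, 3 PARP and DTX3L genes, 3 Schlafen genes and 5 other interferon-induced genes.

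The cells were microglia, the resident macrophages of the brain, sorted from the forebrain of C57BL/6 mice by surface CD11b, low CD45 and CX3CR1, and 58 polyA RNA libraries were made from them. SgshKO mice are knockouts of Sgsh, which encodes sulfamidase, a lysosomal enzyme that removes sulfate groups during heparan sulfate breakdown, and the labels do not describe the allele further. The age series held 22 libraries: WT and SgshKO at 3 weeks (n = 3 and 4), 4 months (n = 2 and 2) and 8 months (n = 4 and 7). In the wild-type antisense experiment, WT mice received a single injection into the cerebral ventricles of PBS, a control antisense oligonucleotide (ntc), or an oligonucleotide against Mitf, Tfeb or Tfe3 (n = 4 each), and microglia were collected 14 days later. The same design, with 1 injection and collection after 14 days, was used in SgshKO mice for ntc (n = 8) and a combination against Mitf and Tfe3 (n = 8), so the controls of that experiment carried the knockout too. Mitf, Tfeb and Tfe3 encode related factors that drive lysosomal genes. The titles give the antisense libraries a grp number, 1 to 4 in WT mice and 1 or 2 in SgshKO mice, without saying what it marks. For PBS replicate 4 in WT mice the column header gives grp 3 and the title grp 4, and the title was followed. The labels give no sex, no age for the injected mice, and no statement that each library came from a separate animal, so p-values measure the spread between these libraries only.

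Type I interferons are cytokines that bind a receptor made of IFNAR1 and IFNAR2 and activate the kinases JAK1 and TYK2, which phosphorylate transcription factors of the STAT family. STAT2 and IRF9 are subunits of the complex ISGF3, which binds the interferon-stimulated response element (ISRE) upstream of antiviral genes. IRF7, itself induced, raises further interferon production, and USP18 damps the receptor. In the brain, microglia are among the cells that take up this program during infection, ageing and neurodegeneration.

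Total counts ran from 8191508 to 27106584 per library in the age series, from 14372015 to 30378870 in the WT antisense libraries and from 12517838 to 30431437 in the SgshKO antisense libraries. Levels below are CPM, counts scaled to the same total in each library, with library sizes adjusted by the TMM method. The 10 microglial markers summed to between 30332 and 55826 CPM in the age series and to between 43498 and 67149 CPM in the antisense libraries. Sgsh transcript remained in the knockouts: at 8 months it measured 31.9 to 59.2 CPM in WT and 20.1 to 34.7 CPM in SgshKO libraries (log2 difference −0.74 ± 0.16 SE, adjusted p = 0.000583 by edgeR's quasi-likelihood test), so RNA checks the genotype only in part. A list of 10 neutrophil and monocyte transcripts summed to between 7.09 and 17.5 CPM in all WT libraries, to between 7.75 and 36.0 CPM in SgshKO libraries at 3 weeks, to 3029 and 14892 CPM at 4 months and to between 443 and 5842 CPM at 8 months. None of the 10 was at 0 in every library of a SgshKO group. At 8 months the sums of border macrophage markers were 15.9 to 32.1 CPM in WT and 61.3 to 108 CPM in SgshKO, and those of proliferation genes were 19.5 to 26.7 and 56.8 to 175 CPM, while those of dissociation-response genes (4013 to 6849 against 7517 to 9337 CPM) and of microglial markers (32674 to 36310 against 41352 to 49372 CPM) were lower in SgshKO. Endothelial markers summed to 42.5 to 57.0 CPM in WT and 13.9 to 26.5 CPM in SgshKO at that age, and astrocyte markers to 1.99 to 5.20 and 10.7 to 18.7 CPM. The part of these shifts in the results was not tested. T, NK and B cell markers (9 of 10 listed) summed to at most 4.27 CPM in any age series library. In bulk samples, fewer cells of a type and less RNA per cell cannot be told apart.

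The stretch before a gene's start is shown for members whose expression the comparisons below turn on and in which the ISRE core was found. RefSeq promoters on build GRCm38.p6, the build of the count files (mm10), were matched by symbol for 28 of the 39 members. The core GAAANNGAAA, searched on both strands as TTTCNNTTTC and allowing overlaps, lay within 250 bases before to 50 bases after a start of 15 of the 28 members (53.6%), against 1079 of 27025 genes (3.99%) with a promoter in the same table. The palindromic GAS core TTCNNNGAA, another motif of interferon-responsive promoters, was found for 6 of 28 (21.4%) against 9.55% of all genes. Each sequence below is the 250 bases before the start, 5′ to 3′ on the gene's own strand, with ISRE cores in capitals. They belong to Isg15 (chr4:156200819-156201068, minus strand), Ifit3 (chr19:34583279-34583528, plus strand), Rsad2 (chr12:26456453-26456702, minus strand), Oas1a (chr5:120907526-120907775, minus strand), Oas3 (chr5:120777660-120777909, minus strand) and Slfn8 (chr11:83020811-83021060, minus strand).
Isg15: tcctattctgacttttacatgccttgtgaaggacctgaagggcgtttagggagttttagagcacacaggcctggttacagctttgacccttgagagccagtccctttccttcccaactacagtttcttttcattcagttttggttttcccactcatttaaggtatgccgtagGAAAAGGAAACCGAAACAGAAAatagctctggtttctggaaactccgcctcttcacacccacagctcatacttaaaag
Ifit3: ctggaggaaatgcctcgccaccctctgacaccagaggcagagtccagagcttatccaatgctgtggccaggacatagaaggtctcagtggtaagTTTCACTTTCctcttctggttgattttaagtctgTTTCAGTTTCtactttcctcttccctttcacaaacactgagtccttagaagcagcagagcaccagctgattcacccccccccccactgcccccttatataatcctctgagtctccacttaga
Rsad2: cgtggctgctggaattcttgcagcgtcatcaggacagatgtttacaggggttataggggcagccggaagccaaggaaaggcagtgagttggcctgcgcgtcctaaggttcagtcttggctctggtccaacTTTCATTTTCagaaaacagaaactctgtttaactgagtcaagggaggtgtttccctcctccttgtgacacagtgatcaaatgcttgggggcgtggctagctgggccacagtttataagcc
Oas1a: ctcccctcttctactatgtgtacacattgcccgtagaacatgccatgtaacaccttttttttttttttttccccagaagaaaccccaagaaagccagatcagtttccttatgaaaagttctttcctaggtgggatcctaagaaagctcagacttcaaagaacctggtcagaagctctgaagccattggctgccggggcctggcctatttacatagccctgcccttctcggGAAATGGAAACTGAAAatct
Oas3: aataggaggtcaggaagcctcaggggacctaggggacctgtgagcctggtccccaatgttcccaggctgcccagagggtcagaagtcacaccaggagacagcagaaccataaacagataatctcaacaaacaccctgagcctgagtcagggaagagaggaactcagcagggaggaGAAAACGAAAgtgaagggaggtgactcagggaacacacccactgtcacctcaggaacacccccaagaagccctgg
Slfn8: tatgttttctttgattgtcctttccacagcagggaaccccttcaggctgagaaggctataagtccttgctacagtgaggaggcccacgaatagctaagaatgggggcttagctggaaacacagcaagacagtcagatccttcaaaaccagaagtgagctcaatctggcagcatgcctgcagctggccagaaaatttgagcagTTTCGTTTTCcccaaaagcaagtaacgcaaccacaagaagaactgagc

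Isg15 held 3 overlapping cores, whose first bases lay 78, 72 and 66 bases before the start. Cores began 156 and 122 bases before the start of Ifit3, 120 before Rsad2, 75 before Oas3 and 48 before Slfn8, and 20 and 14 before Oas1a. The members with and without a core were both described in the comparisons that follow, and a match of letters is a description of this window only.

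The first question of the series was how loss of Sgsh changed microglia at each age. At 3 weeks, 0 members were called higher and 1 lower in SgshKO microglia (edgeR, adjusted p below 0.05 over 14309 genes, of which 9.03% were called, 5.31% up and 3.72% down). EdgeR gave 10 members an unadjusted p below 0.05 at that age, and 30 of the 39 fitted differences were positive. At 4 months 8 were called higher and 0 lower (all genes: 10.3% and 9.26%), and at 8 months 30 were called higher and 1 lower (all genes: 21.6% and 18.9%). The median log2 difference of the 39 members was 0.20, 0.49 and 1.36 at the 3 ages, against −0.02, 0.02 and 0.02 over all genes tested. With 2 libraries per genotype, leaving out WT replicate 1 or 2 at 4 months gave 5 or 2 calls at that age and leaving out either SgshKO library gave 4, and only Ifitm3 was called in every fit. WT and SgshKO libraries did not overlap, with SgshKO higher, for 4, 22 and 21 members (all genes: 10.9%, 29.8% and 14%).

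**Figure D1:**
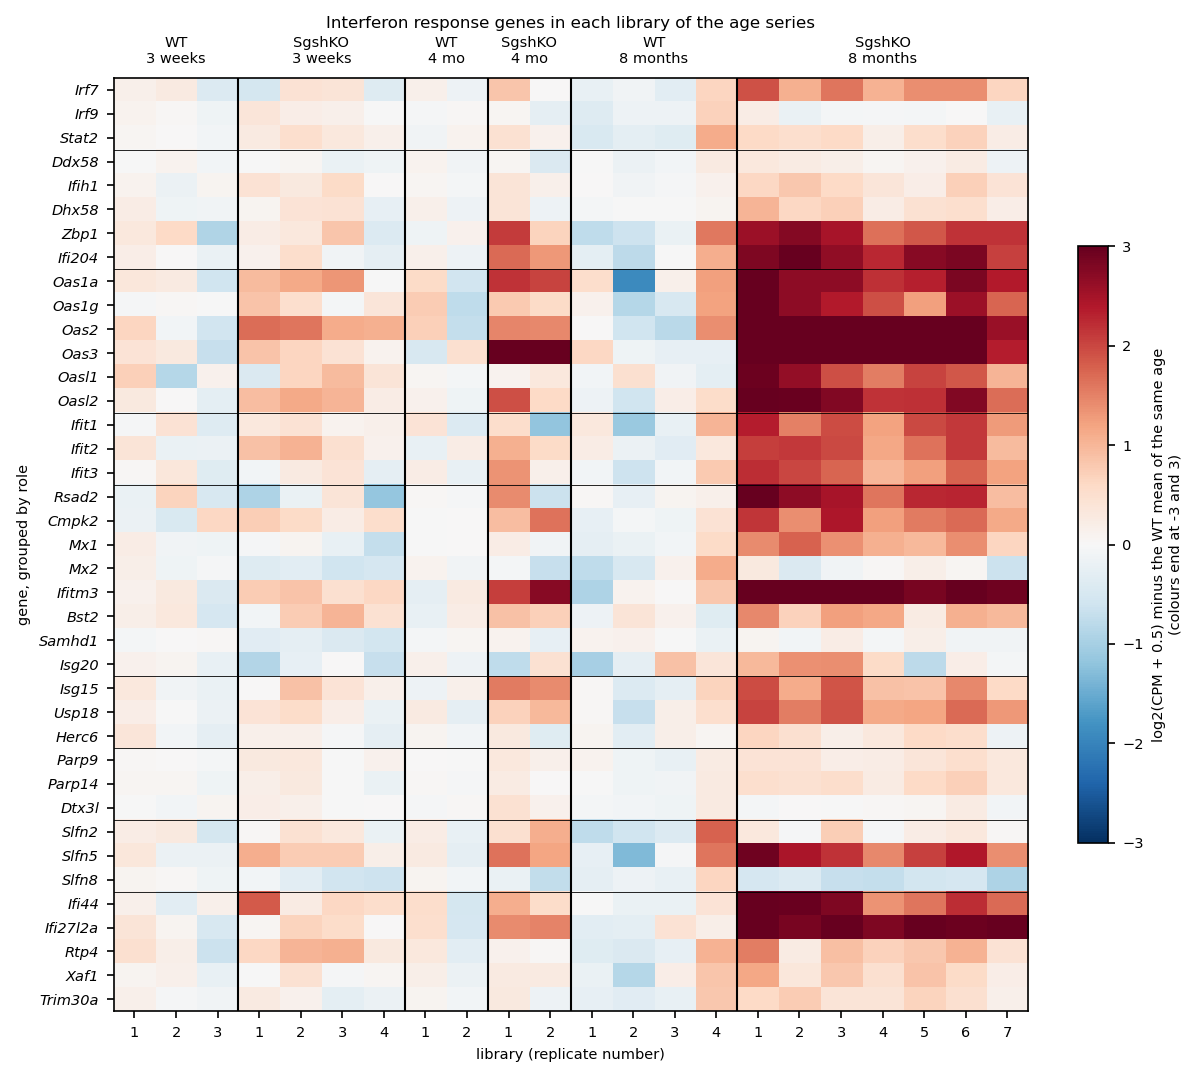
Each member's log2(CPM + 0.5) in each of the 22 age series libraries minus the WT mean of the same age, for the 39 genes in rows ordered by role; colours end at −3 and 3. Red fills most rows of the 7 SgshKO libraries at 8 months, whose medians over the members run from 0.65 to 1.92, and WT replicate 4 at 8 months is the reddest WT library (median 0.57).

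Among the transcription factors at 8 months, Irf7, the interferon-induced factor that amplifies the response, differed most. Irf7 measured 8.39, 9.12, 7.88 and 15.6 CPM in the WT libraries and 15.7 (lowest), 26.6 (median) and 38.6 CPM (highest) in the 7 SgshKO libraries. Every SgshKO library lay above every WT library, although the lowest was close to WT replicate 4. The log2 difference was 1.36 ± 0.26 (SE; 2.56-fold, adjusted p = 0.000141). At 3 weeks Irf7 ranged from 6.59 to 10.9 CPM in WT and from 6.08 to 12.2 CPM in SgshKO, and at 4 months it measured 11.9 and 9.54 CPM in WT against 19.3 and 10.8 CPM in SgshKO. The groups overlapped at both younger ages (log2 differences 0.01 ± 0.31 and 0.49 ± 0.41).

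Stat2 and Irf9, which encode subunits of ISGF3, did not pass the test at any age. Stat2 measured 51.5, 57.2, 54.9 and 152 CPM in WT at 8 months and 79.5, 102 and 114 CPM (lowest, median, highest) in SgshKO. All 7 SgshKO libraries exceeded 3 of the WT libraries and lay below the remaining one, replicate 4. Its difference was 0.34 ± 0.20 (adjusted p = 0.192), and without that WT library it was 0.83 ± 0.11 (adjusted p = 1.25e-06). Irf9 measured 78, 92.3, 91.7 and 167 CPM in WT and 88.1, 99.2 and 119 CPM in SgshKO (difference −0.10 ± 0.14, 95% interval −0.37 to 0.17). The highest of the 11 libraries for Irf9 was again WT replicate 4.

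Of the 5 sensors, 4 rose at 8 months. Ifi204, a member of the PYHIN family of DNA sensors, measured 5.62, 3.88, 6.98 and 15.7 CPM in WT and 30.7, 49.8 and 77.9 CPM in SgshKO. No SgshKO library came within the WT range (log2 difference 2.67 ± 0.29, 6.36-fold, adjusted p = 6.8e-08). Its close paralogs in the Ifi200 cluster could share reads with it. At 4 months Ifi204 already stood at 40.7 and 31.0 CPM in SgshKO against 13.6 and 11.0 CPM in WT (1.55 ± 0.43, adjusted p = 0.0121), while at 3 weeks all 7 libraries lay between 3.58 and 6.56 CPM. Zbp1, a sensor of left-handed nucleic acid that can trigger necroptosis, measured 1.11, 1.26, 1.89 and 7.69 CPM in WT at 8 months and 8.12, 11.8 and 17.9 CPM in SgshKO (2.15 ± 0.46, adjusted p = 0.00057). The lowest SgshKO library exceeded WT replicate 4 only narrowly for Zbp1.

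Ifih1, which encodes the long double-stranded RNA sensor MDA5, measured 32.9, 30.4, 31.8 and 35.4 CPM in WT at 8 months and 37.4, 49.5 and 57.6 CPM in SgshKO (0.55 ± 0.12, adjusted p = 0.000531). The groups did not touch, with a smaller step than for Ifi204. Dhx58, the related helicase LGP2, differed by 0.57 ± 0.15 (adjusted p = 0.0044). Ddx58, which encodes RIG-I, measured 49.7 to 67.7 CPM in WT and 50.1 to 69.9 CPM in SgshKO and was not called (0.15 ± 0.10, 95% interval −0.05 to 0.35).

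All 6 OAS genes, which make or resemble the enzymes that activate RNase L, rose at 8 months. Oas2 measured 3.40, 2.04, 1.70 and 9.64 CPM in WT and 22.8, 44.4 and 76.8 CPM in SgshKO. The lowest SgshKO library exceeded the highest WT library more than 2-fold (log2 difference 3.63 ± 0.42, 12.4-fold, adjusted p = 1.42e-07). At 3 weeks Oas2 measured 6.31, 3.67 and 2.46 CPM in WT and 13.4, 12.8, 9.00 and 8.70 CPM in SgshKO. These did not overlap either, although the difference of 1.44 ± 0.47 missed the threshold (adjusted p = 0.0562).

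Oas1a measured 4.79, 0.485, 3.59 and 8.05 CPM in WT at 8 months and 16.2, 23.1 and 28.8 CPM in SgshKO (2.43 ± 0.41, adjusted p = 4.22e-05). Oasl2, a family member with ubiquitin-like domains, measured 7.42, 5.29, 9.63 and 12.4 CPM in WT and 27.4, 60.0 and 75.9 CPM in SgshKO (2.63 ± 0.30, adjusted p = 1.12e-07). For both genes every SgshKO library was above every WT library at 8 months and at 4 months. At 4 months Oas1a stood at 14.5 and 13 CPM against 4.49 and 1.72 CPM (2.21 ± 0.66, adjusted p = 0.0201), and Oasl2 at 40.5 and 15.8 CPM against 11.3 and 9.32 CPM (1.44 ± 0.45, adjusted p = 0.0247). Oas1a and Oas1g are near-identical copies, so counts may have been split between them.

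Oas3 went from at most 0.416 CPM in the WT libraries at 8 months, with 2 of 4 at 0, to 2.53, 8.52 and 19.8 CPM in SgshKO. It measured 0.118 and 0.717 CPM in WT at 4 months and 6.60 and 8.17 CPM in SgshKO. The SgshKO libraries stood clear of WT at both ages, and the fitted differences of 6.41 ± 0.79 (adjusted p = 4.03e-07) and 3.97 ± 0.99 (adjusted p = 0.00537) depend on the prior count added to near-empty WT libraries. The single ISRE core printed for Oas3 sits among the members with the fewest WT counts. Oas1g (2.97 ± 0.72) and Oasl1 (2.79 ± 0.56) rose at 8 months from WT levels of at most 1.59 and 0.970 CPM.

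The 3 IFIT genes, whose products bind foreign RNA ends, lie side by side at chr19:34550694-34650009 (mm10) and rose together at 8 months (all 3 called, against 0 of 3 at either younger age). Ifit3 measured 6.10, 4.02, 6.13 and 11.7 CPM in WT and 13.6, 22.9 and 32.2 CPM in SgshKO (1.65 ± 0.29, adjusted p = 6.14e-05). Ifit1 measured 3.33, 0.921, 2.12 and 5.66 CPM in WT and 6.61, 11.4 and 15.1 CPM in SgshKO (1.83 ± 0.39, adjusted p = 0.000567). No SgshKO library fell within the WT range for either gene. Ifit2 differed by 1.82 ± 0.24 (adjusted p = 1.28e-06). Ifit3 shares most of its sequence with Ifit3b, which was itself higher at 8 months (2.54 ± 0.41), so the split of reads between them is uncertain.

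Of the 8 other antiviral effectors, 5 rose at 8 months. Ifitm3, a membrane protein that blocks entry of enveloped viruses, measured 1.11, 2.76, 2.55 and 4.86 CPM in WT and 21.3, 29.5 and 46.7 CPM in SgshKO. The lowest SgshKO library was more than 4 times the highest WT library (log2 difference 3.5 ± 0.30, 11.3-fold, adjusted p = 1.33e-09). At 4 months Ifitm3 measured 2.60 and 4.02 CPM in WT and 15.2 and 24.4 CPM in SgshKO (2.55 ± 0.45, adjusted p = 0.000218), and at 3 weeks 3.37, 3.85 and 2.12 CPM in WT and 5.46, 5.85, 4.45 and 4.97 CPM in SgshKO (0.75 ± 0.34, adjusted p = 0.228). The genotypes did not overlap at any age, and the fitted difference was larger at each later age. By edgeR's test of the change itself, that from 3 weeks to 8 months was called. The changes from 3 weeks to 4 months and from 4 to 8 months were not. The paralog Ifitm2, of the further interferon-stimulated genes described below, differed by 6.05 ± 0.44 at 8 months and 4.64 ± 0.59 at 4 months, so the split of reads between the copies is uncertain. Neutrophils and monocytes express Ifitm3 too, and the sums of their transcripts given above moved with genotype at 4 and 8 months. Their part in the Ifitm3 result was not tested.

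Rsad2, which encodes viperin, an enzyme that makes a chain-terminating nucleotide, measured 2.22, 1.75, 2.31 and 2.48 CPM in WT at 8 months and 4.61, 12.5 and 22.1 CPM in SgshKO (2.57 ± 0.44, adjusted p = 4.05e-05). Mx1, a dynamin-like GTPase, measured 7.98, 8.34, 9.11 and 14.7 CPM in WT and 15.5, 25.8 and 34.6 CPM in SgshKO (1.29 ± 0.21, adjusted p = 1.76e-05). Bst2, the tetherin that holds budding virions on the cell, measured 22.3, 32.6, 27.4 and 19.2 CPM in WT and 29.7, 52.7 and 68.0 CPM in SgshKO (1.0 ± 0.21, adjusted p = 0.000589). The groups were apart for Rsad2 and Mx1 and met for Bst2, in which SgshKO replicate 5 lay below the highest WT library. Cmpk2, the neighbour of Rsad2 on chromosome 12, rose at 8 months (1.92 ± 0.31) and at 4 months (1.47 ± 0.48, adjusted p = 0.0312).

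Samhd1, Mx2 and Isg20 were not called at 8 months. Samhd1, which hydrolyses deoxynucleotides and so limits retroviruses, was the only member called at 3 weeks and went down: 124, 131 and 133 CPM in WT against 102, 107, 95.9 and 88.6 CPM in SgshKO (−0.39 ± 0.10, adjusted p = 0.0143). At 8 months it measured 99.8 to 124 CPM in WT and 106 to 133 CPM in SgshKO (0.02 ± 0.08, 95% interval −0.15 to 0.19). The call at 3 weeks was lost when WT replicate 2, WT replicate 3 or SgshKO replicate 4 of that age was left out. Mx2 (−0.24 ± 0.26) and Isg20 (0.67 ± 0.51) overlapped between genotypes at 8 months.

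All 3 genes of the ISG15 pathway rose at 8 months. Isg15, the ubiquitin-like modifier whose upstream stretch held 3 ISRE cores, measured 2.22, 1.5, 1.70 and 3.71 CPM in WT and 3.52, 5.27 and 9.83 CPM in SgshKO (1.48 ± 0.33, adjusted p = 0.000835). SgshKO replicate 7 lay below WT replicate 4, and the other SgshKO libraries lay above all WT libraries. At 4 months Isg15 measured 2.13 and 2.73 CPM in WT and 8.07 and 7.22 CPM in SgshKO (1.64 ± 0.52, adjusted p = 0.026, lost without any of the 4 libraries of that age). Usp18, the protease that removes ISG15 and restrains the receptor, measured 5.41, 3.10, 6.04 and 7.69 CPM in WT at 8 months and 12.3, 16.4 and 23.0 CPM in SgshKO, with no overlap (1.62 ± 0.23, adjusted p = 4.82e-06). Herc6, the mouse ISG15 ligase, measured 29.2 to 41.0 CPM in WT and 32.3 to 56.6 CPM in SgshKO. Its ranges overlapped and its call was close to the threshold (0.39 ± 0.15, adjusted p = 0.0439, lost in 13 of 30 other fits).

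At 8 months 2 of the 3 PARP and DTX3L genes rose, and of the 3 Schlafen genes 1 rose and 1 fell. Parp9, an ADP-ribosyltransferase that pairs with the ligase Dtx3l, measured 75.2, 63.9, 59.2 and 82.2 CPM in WT at 8 months and 80.2, 89.6 and 98.6 CPM in SgshKO (0.34 ± 0.09, adjusted p = 0.00264). Dtx3l, whose gene on the minus strand (chr16:35926515-35939027) overlaps the start of Parp9 on the plus strand (chr16:35938470-35972621), measured 108 to 141 CPM in WT and 111 to 139 CPM in SgshKO and was not called (0.03 ± 0.08, 95% interval −0.14 to 0.19). These ranges overlapped for both genes. Parp14 rose by 0.49 ± 0.10 (adjusted p = 0.000298).

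Slfn8, a Schlafen gene with an ISRE core 48 bases before the start printed above, was the only member called lower at 8 months. It measured 123, 134, 128 and 233 CPM in WT and 77.7, 101 and 113 CPM in SgshKO, with every SgshKO library below every WT library (−0.66 ± 0.14, adjusted p = 0.000627). Without WT replicate 4, the difference was −0.43 ± 0.11 (adjusted p = 0.00435). Slfn5, a nuclear Schlafen protein, went the other way, from 10.7, 4.80, 12.6 and 40.2 CPM in WT to 34.2, 59.7 and 99.4 CPM in SgshKO (1.88 ± 0.38, adjusted p = 0.000308). Slfn2, a Schlafen protein that keeps lymphocytes and monocytes quiescent, measured 23.6, 26.5, 30.4 and 140 CPM in WT and 39.5, 47.4 and 67.5 CPM in SgshKO. The 7 SgshKO libraries were above 3 WT libraries and below WT replicate 4. Slfn2 was therefore not called with all libraries (−0.17 ± 0.33) and was called higher without that library (0.81 ± 0.19, adjusted p = 0.00161). The Schlafen genes of chromosome 11 are close copies and reads may have been shared among them.

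All 5 other interferon-induced genes rose at 8 months. Ifi27l2a, which encodes a small mitochondrial protein, measured 1.32, 1.36, 2.55 and 2.03 CPM in WT and 15.3, 18.8 and 33.9 CPM in SgshKO (3.47 ± 0.30, 11.1-fold, adjusted p = 1.13e-09). No SgshKO library was within 5-fold of the highest WT library. At 4 months Ifi27l2a measured 5.32 and 2.44 CPM in WT and 10.5 and 11.1 CPM in SgshKO (1.52 ± 0.43, adjusted p = 0.013). Ifi44 measured 0.0694, 0, 0 and 0.265 CPM in WT at 8 months and 0.964, 2.17 and 5.34 CPM in SgshKO, apart in all libraries (5.19 ± 0.94, adjusted p = 8.4e-05, a fit that depends on the prior count). Rtp4, a chaperone of membrane receptors, measured 11.2, 10.6, 12.3 and 30.2 CPM in WT and 17.3, 26.0 and 43.1 CPM in SgshKO (0.76 ± 0.28, adjusted p = 0.0314). Xaf1, a partner of the apoptosis inhibitor XIAP, measured 11.8, 7.27, 15.6 and 24.7 CPM in WT and 15.7, 20.6 and 31.0 CPM in SgshKO (0.57 ± 0.23, adjusted p = 0.0482). Both overlapped through WT replicate 4, and the call of Xaf1 was lost in 23 of 30 other fits and that of Rtp4 in 10. Trim30a rose by 0.43 ± 0.17 (adjusted p = 0.048).

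**Figure D2:**
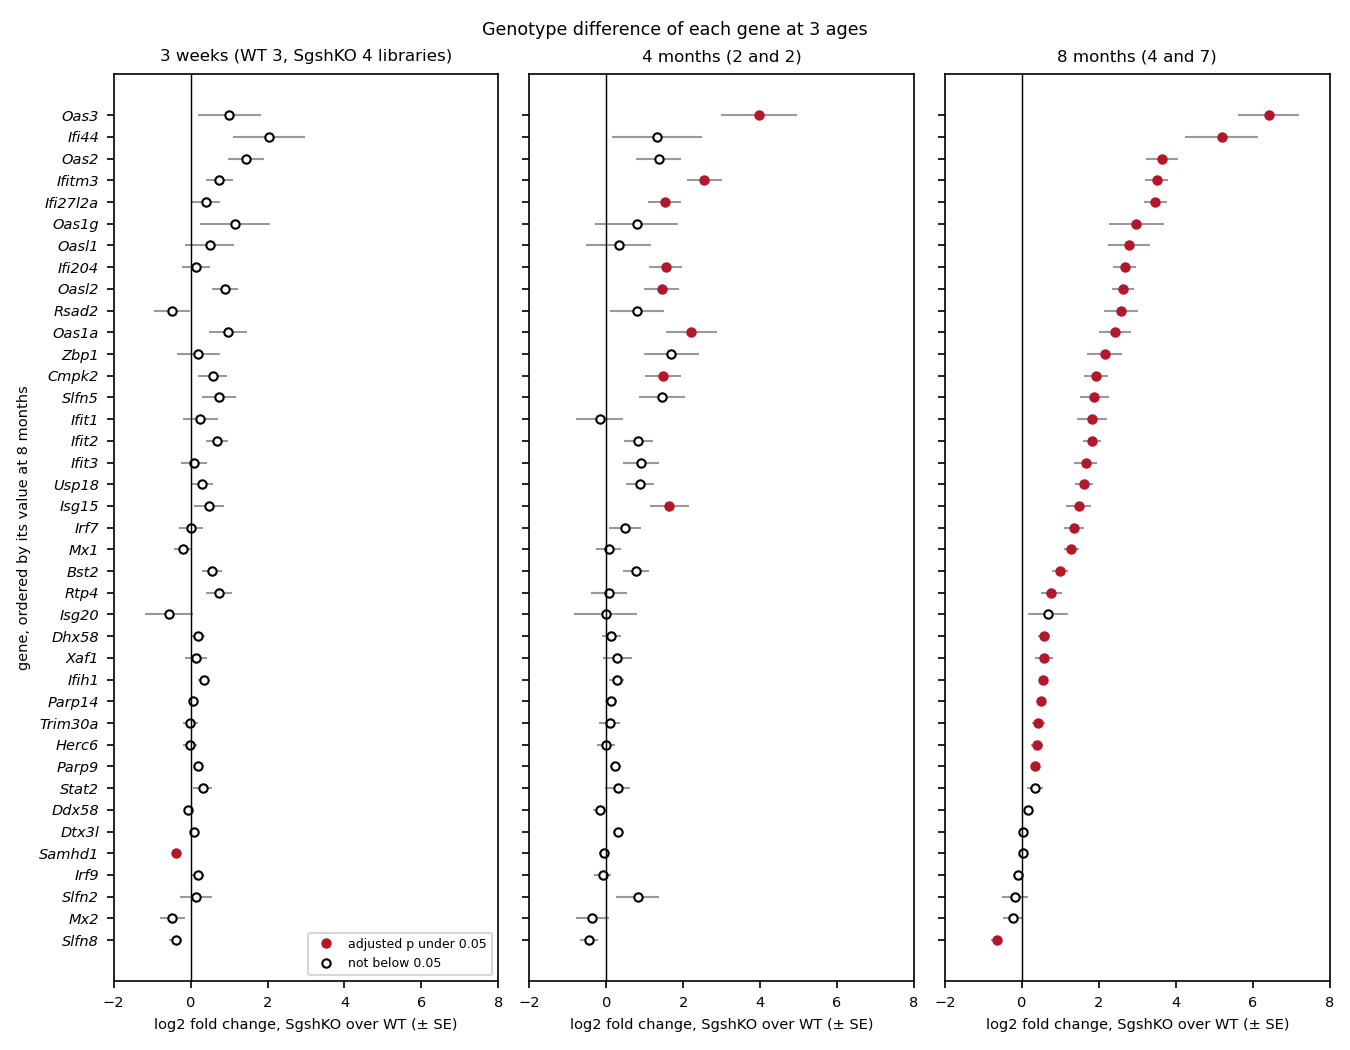
Fitted log2 difference between SgshKO and WT (bars, SE) for the 39 genes at 3 weeks, 4 months and 8 months; filled red points passed the test. At 8 months 31 points are filled, 30 of them to the right of 0, and at 3 weeks only Samhd1 is.

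Levels were compared between members per transcript length, as the authors' deposited TPM at 8 months. Median TPM in SgshKO was 98.2 for Bst2, 69.4 for Trim30a, 64.4 for Ifitm3, 60.1 for Irf9 and 55.9 for Ifi27l2a. In WT, Irf9 (60.4), Slfn8 (54.0), Bst2 (51.1), Trim30a (46.6) and Samhd1 (46.3) led, and Ifitm3 and Ifi27l2a stood at 6.41 and 5.84. The TPM ranges of Bst2 (56.2 to 127), Trim30a (52.9 to 88.4), Ifitm3 (47.5 to 102), Irf9 (51.1 to 71.4) and Ifi27l2a (47.0 to 105) in SgshKO overlapped one another, and so did those of Irf9 (51.0 to 111), Slfn8 (49.4 to 92.8), Bst2 (40.4 to 66.3) and Trim30a (43.0 to 97.9) in WT, so neither order is resolved. At the other end, Ifi44 (1.06), Oasl1 (2.33) and Oas3 (2.70) remained low in SgshKO.

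WT replicate 4 at 8 months stood apart within its group. It was the highest of the 4 WT libraries for 32 of the 39 members, and the summed level of the members was 1831 CPM in it against 1073 to 1112 CPM in the other 3. For 7 members (Irf9, Stat2, Mx2, Dtx3l, Slfn2, Slfn8 and Trim30a) it lay above every SgshKO library, for 23 it lay below every SgshKO library, and for 9 it lay within their range. Oas3, Oasl1, Bst2, Samhd1, Isg20, Herc6 and Ifi27l2a were not highest in it. Neutrophil and monocyte transcripts summed to 11.4 CPM in replicate 4, the lowest sum of the 4 WT libraries. Without it, 31 members were called higher and 1 lower at 8 months and the median difference was 1.59. Its total count, 10875209, was the lowest of the WT group at that age.

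The 7 SgshKO libraries at 8 months also differed among themselves. Their median log2 distance from the WT mean over the 39 members was 1.92, 1.37, 1.60, 1.05, 0.98, 1.40 and 0.65 for replicates 1 to 7. Replicate 1 was the highest library for 23 members and replicate 7 the lowest for 22. Total counts of replicates 1 to 7 were 27106584, 14138479, 25842244, 14515678, 17874355, 21270482 and 11146412. The part of depth in this spread was not tested. Neutrophil and monocyte transcripts summed to 2854, 826, 5842, 656, 762, 443 and 756 CPM in the same order. Replicates 3 and 1 had the highest sums, with medians of 1.60 and 1.92, and replicate 6 had the lowest with a median of 1.40. At 4 months, replicate 2, with 14892 CPM of these transcripts, had a member median of 0.27, below the 0.53 of replicate 1 with 3029 CPM. That contrast rests on 1 library each, and how these sums relate to the members was not tested. Libraries that carried Ddx3y rather than Xist transcript, which marks male cells, were all 4 WT and 4 of the 7 SgshKO libraries at 8 months. A fit with only those 8 at that age called 29 members, with 28 of them higher. All 7 libraries at 3 weeks carried Xist.

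**Figure D3:**
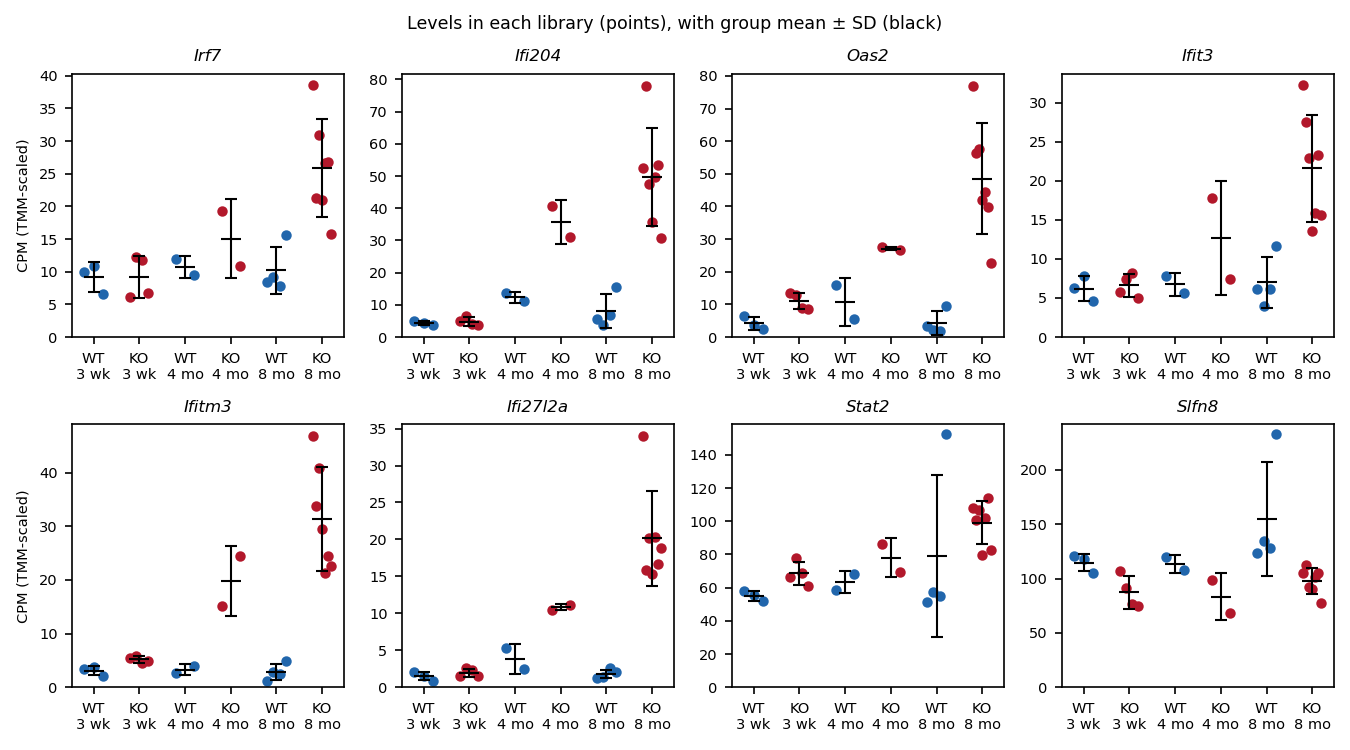
CPM of Irf7, Ifi204, Oas2, Ifit3, Ifitm3, Ifi27l2a, Stat2 and Slfn8 in each age series library (points), with the group mean and SD. For the first 6 genes the 7 SgshKO points at 8 months all lie above the 4 WT points, for Slfn8 all lie below, and for Stat2 WT replicate 4 (152 CPM) is above all 7.

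Whether the genotype difference itself changed with age was tested as an interaction. Between 3 weeks and 8 months it increased for 11 members and decreased for 0 (all genes: 5.98% and 3.26%, or 9.25% in all), and the median change of the 39 was 1.15. The largest were Oas3 (5.40 ± 1.21, adjusted p = 0.00477), Ifi27l2a (3.06 ± 0.46, adjusted p = 8.5e-05), Rsad2 (3.06 ± 0.63, adjusted p = 0.00231) and Ifitm3 (2.75 ± 0.45, adjusted p = 0.000191). The count was 7 without WT replicate 1 at 3 weeks and 20 without WT replicate 4 at 8 months. All 7 libraries at 3 weeks carried Xist, and at 8 months all 4 WT but only 4 of 7 SgshKO libraries carried Ddx3y. By these transcripts, sex was not balanced across the groups of this interaction. Between 3 weeks and 4 months edgeR called 0 members (3 at an unadjusted p below 0.05; DESeq2 called 1; all genes: 1.63% higher and 0.895% lower), and between 4 and 8 months it called 0 (10 unadjusted; DESeq2 1; all genes: 0.259% and 0.133%).

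Within SgshKO microglia, 26 members were higher at 8 months than at 3 weeks and 0 lower (all genes: 15.5% and 15.1%), and all 39 fitted differences were positive. All 4 libraries at 3 weeks carried Xist and 4 of the 7 at 8 months carried Ddx3y, so age and sex were partly tied there. Ifi27l2a (3.36 ± 0.30), Oas3 (3.82 ± 0.62), Ifi204 (3.35 ± 0.31) and Oas1g (2.96 ± 0.71) differed most among those called. At 4 months against 3 weeks 9 were higher and 1, Irf9, lower (−0.53 ± 0.20, adjusted p = 0.0462; all genes: 17.6% and 15.2%, or 32.7% in all). The groups of those ages did not overlap for 13 members, 11 of them higher at 4 months (all genes: 48.9% in either direction). From 4 to 8 months 5 were higher, namely Rsad2 (1.78 ± 0.57), Rtp4 (1.33 ± 0.39), Dhx58 (1.0 ± 0.21), Mx1 (0.94 ± 0.27) and Irf9 (0.59 ± 0.19), and 0 lower (all genes: 8.77% and 11%). That count was 0 without SgshKO replicate 2 at 4 months and 9 without SgshKO replicate 1 at 4 months or without WT replicate 4 at 8 months.

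In WT microglia age moved few members. Ifi204 was higher at 4 months than at 3 weeks (13.6 and 11.0 against 5.12, 4.45 and 3.80 CPM; 1.46 ± 0.41, adjusted p = 0.0378), and no member was lower (all genes: 2.61% and 2.6%). Rsad2 was lower at 8 months than at 3 weeks (2.22, 1.75, 2.31 and 2.48 against 5.61, 10.8 and 4.58 CPM; −1.68 ± 0.49, adjusted p = 0.0327), and no member was higher (all genes: 3.02% and 4.63%, or 7.65% in all). Neither pair of groups overlapped. Over all genes, the WT groups of 4 months and 3 weeks did not overlap for 43.4%, with 21.2% higher at 4 months, and those of 8 months and 3 weeks for 20.4%, with 12.1% lower and 8.25% higher at 8 months. The call of Ifi204 was lost without any of the 5 libraries compared, and that of Rsad2 without any of the 7 except WT replicate 3 at 3 weeks. All 3 WT libraries at 3 weeks carried Xist and all 4 at 8 months carried Ddx3y, so age and sex cannot be told apart in that comparison, and at 4 months 1 WT library carried each. With a term for Ddx3y minus Xist neither call remained. Dissociation-response genes summed to 16815 and 21898 CPM in WT at 4 months against 4397 to 6805 CPM at 3 weeks, and their part in the Ifi204 result was not tested. Between 4 and 8 months edgeR called 0 members in WT (7 unadjusted; DESeq2 1; all genes: 2.18% and 3.59%).

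The rest of the pathway did not move as a block with the members. Of 32 tested genes of a list of 38 for receptors, signalling, sensing and feedback, 7 were higher and 15 lower in SgshKO at 8 months (all genes: 21.6% and 18.9%). Their median was −0.23, and the higher calls were near the share of all genes. Called lower at all 3 ages were the DNA-sensing genes Mb21d1, which encodes cGAS (−0.97 ± 0.09 at 8 months), and Tmem173, which encodes STING (−0.69 ± 0.07), the interferon gamma receptor chain Ifngr1 (−0.73 ± 0.07) and the RNA-sensing Toll-like receptor Tlr3 (−0.77 ± 0.11). Tlr7, another RNA sensor, was called lower at 8 months (−0.79 ± 0.12). Ikbke, a kinase of interferon regulatory factors, rose (1.64 ± 0.40), and the receptor chain Ifnar2 rose by 0.23 ± 0.07.

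A second list of 53 interferon-stimulated genes that were not members had 46 tested. Of these, 6, 10 and 26 were higher at the 3 ages (all genes: 5.31%, 10.3% and 21.6%) and 0 lower, with medians of 0.18, 0.27 and 0.52. At 8 months Cxcl10, a chemokine for T cells, differed by 2.37 ± 0.42, the MHC class I activator Nlrc5 by 1.97 ± 0.19, the secreted glycoprotein gene Lgals3bp by 1.97 ± 0.16 and Cd274, which encodes PD-L1, by 1.89 ± 0.16. Nlrc5, Lgals3bp and Cd274 were already called at 3 weeks (1.19 ± 0.23, 0.95 ± 0.18 and 0.90 ± 0.19), an age at which no member was called higher. Transcripts of the interferons themselves were near absent. Over the 22 libraries Ifnb1 had 13 counts in 4 libraries, none of them WT, Ifna2 had 9 counts in 2 SgshKO libraries at 8 months, Ifng had 1 count, and Ifna1, Ifna4 and Ifna5 had 0. These counts are too few for a test.

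Members with an ISRE core in the window and members without one were both called at 8 months. Of the 15 with a core, 12 were higher and 1 lower (median 1.65), and of the 13 without, 8 were higher (median 0.67). Over all genes, 21.6% were higher and 18.9% lower at that age. The median change in the genotype difference from 3 weeks to 8 months was 1.15 with a core and 1.12 without. Differences between these medians were not tested. Members without a matched promoter, among them Oas2, Ifi204 and Ifi27l2a, are in neither set. Core-bearing members that were not called at 8 months were Stat2 and Ddx58.

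In the WT antisense experiment the question was whether lowering each factor changed microglial genes in the absence of lysosomal disease. The oligonucleotides lowered their targets, Mitf by −4.81 ± 0.12, Tfeb by −3.24 ± 0.08 and Tfe3 by −2.38 ± 0.06 on the log2 scale against ntc. Of the 28 members, edgeR called 2 higher with Mitf knockdown and 0 lower (9 at an unadjusted p below 0.05; all genes: 5.77% and 5.21%). With Tfeb knockdown it called 0 (1 unadjusted; DESeq2 0; all genes: 0.564% and 0.214%) and with Tfe3 knockdown 0 (9 unadjusted; DESeq2 2; all genes: 1.46% and 0.701%). These 3 comparisons share the ntc libraries. The ntc oligonucleotide against PBS gave 0 calls among the members and over all genes (0 unadjusted among the members; DESeq2 0; all genes: 0%), although 26 of the 28 fitted differences were negative, with a median of −0.11.

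The 2 members called with Mitf knockdown were Oas1a and Bst2. Oas1a measured 4.58, 3.42, 3.95 and 4.14 CPM with ntc in grp 1 to 4 and 6.19, 8.12, 12.4 and 5.0 CPM with the Mitf oligonucleotide (0.96 ± 0.29, adjusted p = 0.0376). All Mitf libraries were above all ntc libraries for Oas1a, whereas PBS gave 4.44, 3.92, 5.08 and 5.95 CPM, overlapping both. Bst2 measured 25.1, 26.5, 28.5 and 20.4 CPM with ntc and 31.8, 38.0, 46.0 and 21.9 CPM with the Mitf oligonucleotide (0.44 ± 0.13, adjusted p = 0.0428), higher within each grp but overlapping across them. EdgeR called 0 members without the Mitf library of grp 2 or grp 3 or the ntc library of grp 1 or grp 3, and 4 without the PBS or the Mitf library of grp 1. The median was 0.14 without the Mitf library of grp 3.

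Irf7 reached its highest levels in single libraries. It measured 2.24, 2.61, 2.63 and 1.71 CPM with ntc, 3.94, 2.76, 3.44 and 5.54 CPM with PBS, 3.87, 3.34, 10.7 and 5.44 CPM with Mitf knockdown and 12.6, 2.18, 4.17 and 4.46 CPM with Tfe3 knockdown. The Mitf library of grp 3 and the Tfe3 library of grp 1 stood far above the rest, and the other Mitf libraries lay within the PBS range. The difference from ntc was 1.30 ± 0.41 with Mitf (adjusted p = 0.0505) and 1.26 ± 0.42 with Tfe3 (adjusted p = 0.13). Tfeb knockdown gave 3.86, 4.22, 4.10 and 3.46 CPM, also inside the PBS range. Every PBS, Mitf and Tfeb library lay above every ntc library for Irf7. Knockdown and ntc libraries did not overlap, with knockdown higher, for 5 members with Mitf, 3 with Tfeb and 1 with Tfe3 (all genes: 4.07%, 2.18% and 2.6%). For ntc against PBS, 1 member was lower without overlap (all genes: 0.516%).

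The Tfe3 library of grp 1 was above the ntc library of its grp for 28 of 28 members and more than 1 log2 unit above it for 13. Its median log2 difference was 0.86, against 0.02, 0.02 and 0.01 in the other 3 Tfe3 libraries. Ifit3 measured 26.5 CPM in it and 6.11, 10.2 and 5.67 CPM in the others, with 4.60 to 7.75 CPM in ntc. Rsad2 measured 9.26 CPM in it and 2.79, 2.52 and 1.68 CPM in the others, with 0.887 to 2.90 CPM in ntc. Ifi204 measured 23.1 CPM in it and 5.87, 6.22 and 6.54 CPM in the others, with 4.69 to 7.47 CPM in ntc. For each of these the other Tfe3 libraries reached into or near the ntc range. Without the Tfe3 library of grp 1, the median Tfe3 difference was −0.02 and 13 of 28 fitted differences were positive. In the same fit, which shares its spread over treatments, 8 members were called with Mitf knockdown. The share of all genes called in that fit is not given here, so a general gain in calls cannot be told apart.

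The Mitf library of grp 3 had a median of 0.69 against its ntc library and exceeded it by more than 1 log2 unit for 8 members. The other Mitf libraries had medians of 0.18, 0.09 and 0.08, the Tfeb libraries −0.01 to 0.22 and the PBS libraries −0.10 to 0.20. The 1 neutrophil and monocyte transcript listed in this table measured 3.44 CPM in the Mitf library of grp 3 and 5.38 CPM in the Tfe3 library of grp 1, within the 3.33 to 5.51 CPM of ntc. The microglial marker sum in the 4 Mitf libraries (60206 to 62279 CPM) lay below that of ntc (63714 to 67003 CPM), and its part in the result was not tested.

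**Figure D4:**
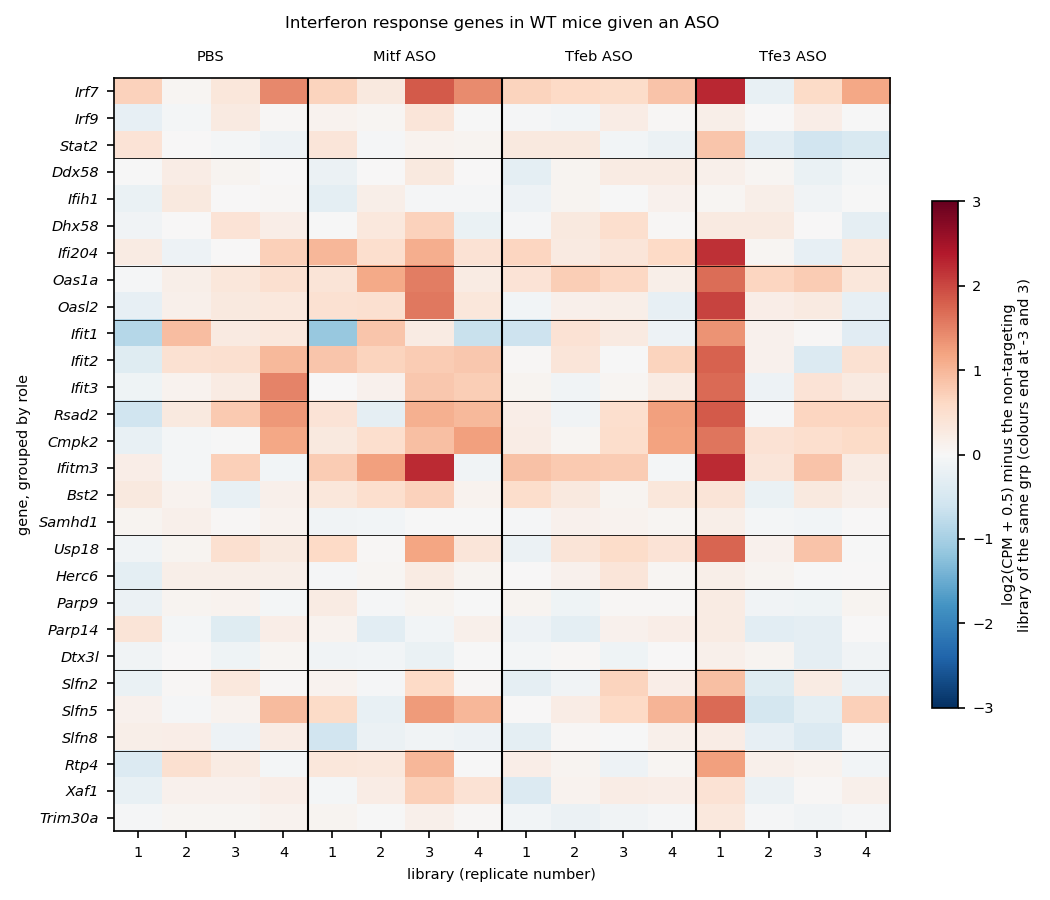
Log2(CPM + 0.5) of the 28 listed members in each WT library given PBS or an oligonucleotide against Mitf, Tfeb or Tfe3, minus the ntc library of the same grp. The columns for Tfe3 in grp 1 (median 0.86) and Mitf in grp 3 (median 0.69) are red through most rows, and the other columns have medians between −0.10 and 0.22.

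Of the wider pathway, Mitf knockdown lowered 5 of 30 receptor, signalling and sensing genes (Ifngr1, Tlr3, Irf5, Tlr9 and Tmem173, by −0.19 to −0.31) and raised 0. Mitf knockdown raised 6 of 32 further interferon-stimulated genes, led by Lgals3bp (0.55 ± 0.09). Over all genes it lowered 5.21% and raised 5.77%. Ly6e, a GPI-anchored surface protein gene that interferon induces, rose with all 3 oligonucleotides, by 0.42 ± 0.05 with Mitf, 0.40 ± 0.05 with Tfeb and 0.29 ± 0.05 with Tfe3.

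In SgshKO mice the question was whether lowering Mitf and Tfe3 together changed the disease-associated expression. Mitf fell by 2.26 ± 0.12 and Tfe3 by 1.08 ± 0.06 on the log2 scale against ntc. Of the 32 members listed, 19 were called higher and 0 lower (all genes: 4.84% and 4.5%), all 32 fitted differences were positive, and the median was 0.36. Against their own grp, the 8 combination libraries had medians between 0.14 and 0.51.

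Irf7 measured 6.65, 7.39, 7.44 and 5.43 CPM with ntc in grp 1 and 5.93, 8.20, 6.07 and 7.07 CPM in grp 2. With the combination it measured 20.5, 13.9, 17.2 and 12.1 CPM in grp 1 and 10.9, 11.2, 10.7 and 10.3 CPM in grp 2. All 8 combination libraries exceeded all 8 ntc libraries, with the larger step in grp 1 (log2 difference 0.94 ± 0.13, adjusted p = 0.000284). Only Irf7, Oasl2 and Ifi204 separated completely over both grps (all genes: 0.406%). Oasl2 ranged from 11.0 to 25.9 CPM (median 16.9) with ntc and from 28.6 to 39.8 CPM (median 33.8) with the combination (0.94 ± 0.14, adjusted p = 0.000451). Ifi204 ranged from 16.9 to 25.5 CPM (median 20.3) and from 29.2 to 41.7 CPM (median 35.0) (0.79 ± 0.10, adjusted p = 8.98e-05).

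Among the effectors, Ifitm3 had the lowest adjusted p of the members. It measured 14.4, 21.7, 17.3 and 15.5 CPM with ntc in grp 1 and 11.8, 13.9, 13.8 and 15.9 CPM in grp 2, and 40.1, 36.1, 33.4 and 27.8 CPM with the combination in grp 1 and 22.6, 28.3, 21.1 and 24.3 CPM in grp 2. The treatments were apart within each grp and touched only across grps (0.89 ± 0.10, adjusted p = 2.51e-05). Ifi27l2a ranged from 3.31 to 7.59 CPM (median 5.35) with ntc and from 6.60 to 18.2 CPM (median 9.88) with the combination (0.98 ± 0.14, adjusted p = 0.000451), the largest difference of the 32. Its ranges met only across grps. Oas3 ranged from 1.31 to 4.78 CPM and from 3.52 to 9.74 CPM (0.95 ± 0.24, adjusted p = 0.0197), and Isg15 from 2.04 to 4.30 CPM and from 4.00 to 7.24 CPM (0.83 ± 0.16, adjusted p = 0.00436).

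Also called were Zbp1 (0.72 ± 0.17), Slfn5 (0.66 ± 0.13), Ifit3 (0.54 ± 0.14), Oas1a (0.54 ± 0.11), Rsad2 (0.51 ± 0.15), Ifit1 (0.50 ± 0.14), Ifit2 (0.44 ± 0.10), Slfn8 (0.41 ± 0.07), Usp18 (0.38 ± 0.11), Bst2 (0.34 ± 0.09), Parp14 (0.23 ± 0.05) and Samhd1 (0.18 ± 0.04). Slfn8, which was lower in SgshKO than in WT at 8 months, measured 16.3 to 23.4 CPM (median 19.2) with ntc and 21.0 to 31.9 CPM (median 26.8) with the combination (adjusted p = 0.000734). Its 2 treatments separated within each grp and overlapped over both. Not called were Stat2 (0.22 ± 0.07, adjusted p = 0.0593), Xaf1 (0.33 ± 0.10, adjusted p = 0.0512), Cmpk2, Ddx58, Rtp4, Slfn2, Irf9, Ifih1, Trim30a, Dhx58, Herc6, Dtx3l and Parp9, with differences of 0.02 to 0.33.

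Fitted within each grp, which leaves 4 libraries per treatment, the combination gave 5 calls in grp 1, all higher (29 of 32 differences positive, median 0.35; all genes: 1.16% higher), and 12 in grp 2, all higher (32 of 32, median 0.39; all genes: 1.53% higher). The treatments did not overlap, with the combination higher, for 10 members in grp 1 and 20 in grp 2 (all genes: 7.75% and 5.9%), and for Ifi204, Ifi27l2a, Ifitm3, Irf7, Oas3, Oasl2, Parp14 and Slfn8 in both. Neutrophil and monocyte transcripts (7 of 10 listed) summed to 4.14 to 44.5 CPM in grp 1 and 75.9 to 568 CPM in grp 2, and to 5.44 to 568 CPM with ntc and 4.14 to 361 CPM with the combination. The 1 listed border macrophage marker measured 116 to 183 CPM with ntc and 155 to 195 CPM with the combination, and its part in the result was not tested.

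**Figure D5:**
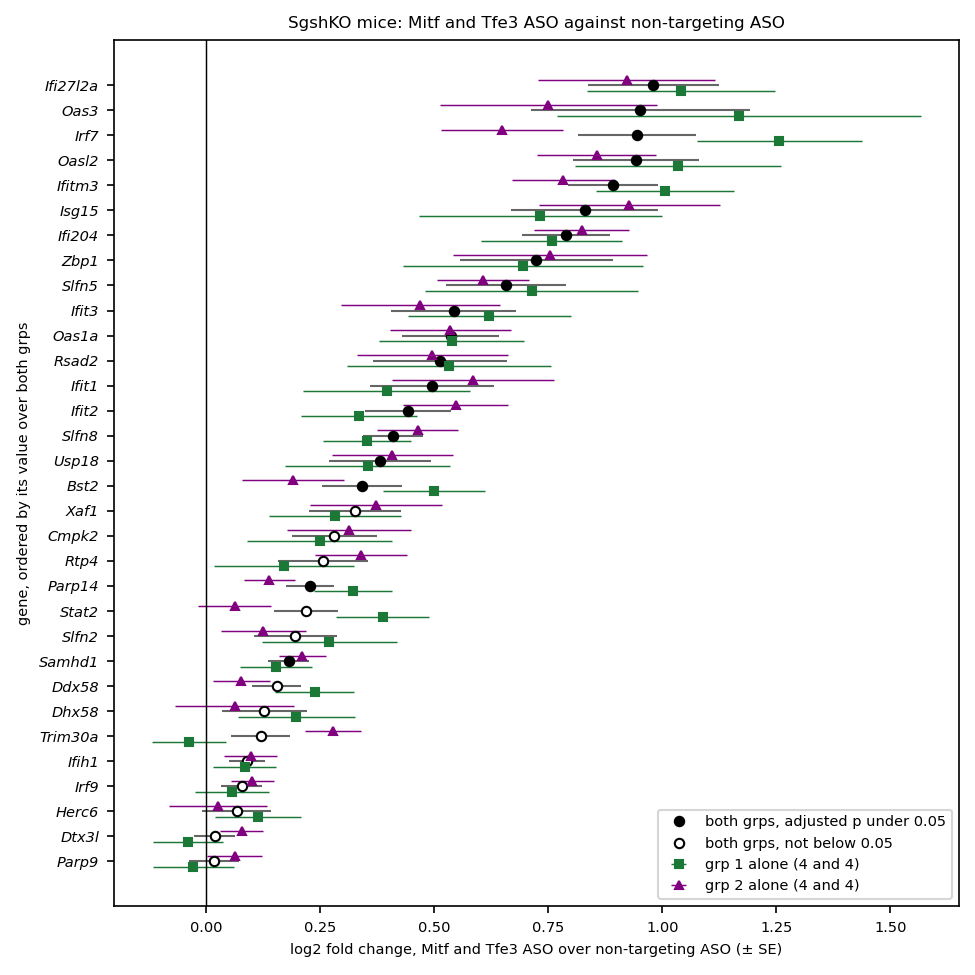
Fitted log2 difference (± SE) between the Mitf plus Tfe3 combination and ntc in SgshKO microglia for the 32 listed members over both grps (circles, filled where the test was passed), in grp 1 alone (squares) and in grp 2 alone (triangles). All 32 circles lie right of 0 and 19 are filled, and the square for Irf7 lies farthest right.

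The untreated SgshKO series and the injected SgshKO series hold different libraries, so their calls could be set side by side. Of the 32 members tested in both, 25 were higher in SgshKO at 8 months, 19 were higher with the combination, and 17 were higher in both. The 17 were 68% of the first list and 89.5% of the second. Lists this large would share many of 32 members without any link, and the overlap over all genes was not counted. The 2 called higher only with the combination were Samhd1 and Slfn8, and Slfn8 was called lower in SgshKO at 8 months. Among the genes called higher only at 8 months were Trim30a, Rtp4, Dhx58 and Ifih1. Of the core-bearing members listed for the injected mice, 10 of 14 were called higher with the combination (median 0.50). Of those without a core, 4 of 10 were (median 0.24), against 4.84% of all genes.

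In the wider pathway, 4 of 29 tested genes of the receptor, signalling and sensing list were higher with the combination, among them Eif2ak2, which encodes the RNA-activated kinase PKR (0.39 ± 0.09), Trex1 (0.23 ± 0.05) and Adar (0.18 ± 0.05), and 1 was lower, Tlr7 (−0.23 ± 0.05). Of 36 further interferon-stimulated genes 11 were higher, led by Helz2 (0.89 ± 0.18), Ifi207 (0.81 ± 0.14) and Cxcl10 (0.77 ± 0.20). Over all genes 4.84% were higher and 4.5% lower with the combination. Cd274 was the only one of the 36 that was lower (−0.32 ± 0.06), opposite to its difference in the untreated knockouts.

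Across libraries of one series most members rose and fell together. The median correlation between pairs of members, after removal of group means, was 0.482 in the age series, 0.470 in the WT antisense libraries and 0.483 in the SgshKO antisense libraries, against 0.00 over all pairs of tested genes. The median correlation with the other members was −0.04 for Bst2, −0.005 for Samhd1 and 0.08 for Oasl1 in the age series. It was 0.08 for Parp14 in the WT antisense libraries, where differences between grp numbers were not removed. These are descriptions over 22, 20 and 16 libraries, and the paired genes share a library and its depth. WT replicate 4 at 8 months was the highest of its group for 32 of 39 members. The Tfe3 library of grp 1 was the highest of its group for 23 of 28. How far the correlations rest on such single libraries was not tested.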

How the data were processed

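PolyA RNA of sorted microglia was sequenced single-end from libraries that keep the strand (dUTP), per the labels' protocols. The authors deposited gene counts and TPM for the age series and gene counts with batch-corrected signal for both antisense experiments, per the file headers. How the signal was corrected is not stated there. STAR 2.5.3a, kallisto 0.44.0, HOMER 4.11, DESeq2 1.36.0, R 4.2.3 and build mm10 are named, without roles, in the submitters' processing notes, and which of them made each file is not given in the sources used here. The antisense tables list only genes that passed a prior filter on low values, so absent members cannot be called unexpressed.

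Counts were analysed in R 4.3.3 with edgeR 4.0.16 (TMM, filterByExpr with a minimum count of 10, quasi-likelihood F test), 1 fit per table, with Benjamini-Hochberg adjustment over all genes tested and a threshold of 0.05. The age model held the groups and the antisense models also held the grp number. SE is the absolute log2 difference divided by the square root of F. DESeq2 1.42.0 on the counts and limma 3.58.1 on log2(TPM + pseudocount, 1 or 0.1) and on the deposited signal were alternatives, as were RLE factors, no filter, a minimum count of 50, a replicate block, a term for Ddx3y minus Xist and leaving out each library. Limiting the 8-month libraries to those with more Ddx3y than Xist, and fitting each grp alone, were added after seeing the data. Where 1 library of a group remained, it was assumed to vary like the other groups. The scripts were tested on simulated data. Replicate libraries differed by more than counting noise (chi-square per degree of freedom at least 8.29), so none was counted as a duplicate. Totals per library ranged from 8191508 to 30431437 counts, and depth limits members with few counts such as Oas3 and Ifi44.

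The members and the lists were chosen with earlier results of these data known. All members are accounted for by counts and ranges. Per-library values are given for representatives of each role and, in each comparison, for or beside the 4 called members with the largest difference. Genes outside the members are named from the lists only, and 1 gene of those lists is not reported here. Upstream sequences are from RefSeq (GRCm38.p6), and those printed were chosen after the values were seen. Deposited TPM served to compare levels between genes.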

Additional observations from a re-analysis of the deposited data

Results flagged for a closer look

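Most members moved together within a library, so combinations of member and group are not independent and their count has no chance rate here. Within groups of 4 to 10 libraries, 28 of 252 such combinations had a highest or lowest library set apart by Dixon's 95% criterion. Of these, 8 were WT replicate 4 at 8 months: Irf7 (15.6 CPM, next 9.12), Irf9 (167, next 92.3), Stat2 (152, next 57.2), Zbp1 (7.69, next 1.89), Mx1 (14.7, next 9.11), Dtx3l (141, next 112), Slfn2 (140, next 30.4) and Rtp4 (30.2, next 12.3). Another 8 were the Tfe3 library of grp 1: Stat2 (27.7 CPM, next 17.6), Ifih1 (47.7, next 37.0), Ifi204 (23.1, next 6.54), Oas1a (15.8, next 7.10), Ifit1 (8.95, next 2.78), Rsad2 (9.26, next 2.79), Rtp4 (25.5, next 11.3) and Xaf1 (9.52, next 5.71). No label sets either library apart.

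The remaining 12 were spread over other libraries. In the age series they were Oas3 in WT replicate 1 at 8 months (0.416 CPM, next 0.0485), Dtx3l in SgshKO replicate 6 (139, next 123), Slfn2 in SgshKO replicate 3 (67.5, next 50.8) and Ifi27l2a in SgshKO replicate 1 (33.9, next 20.3) at 8 months, and Ifi44 in SgshKO replicate 1 (1.99, next 0.581) and Xaf1 in SgshKO replicate 2 (15.5, next 11.7) at 3 weeks. In WT antisense libraries they were Stat2 with PBS in grp 3 (25.2, next 20.8), Dhx58 with ntc in grp 1 (15.4, next 10.02) and Ifit3 with Mitf knockdown in grp 3 (13.6, next 8.04). In SgshKO antisense libraries they were Oas3 (9.74, next 5.48) and Slfn2 (54.3, next 41.3) with the combination in grp 1 replicate 1, and Usp18 with ntc in grp 1 replicate 3 (13.5, next 9.66).

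The genotype difference was larger at 8 months than at 3 weeks, by an interaction term in edgeR with adjustment over all genes, for Oas3 (5.40), Ifi27l2a (3.06), Rsad2 (3.06), Ifitm3 (2.75), Ifi204 (2.54), Oas2 (2.20), Oasl2 (1.74), Ifit3 (1.57), Mx1 (1.48), Irf7 (1.35) and Usp18 (1.33), all on the log2 scale.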

How the results depend on the processing

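Counts of members called are given here as higher and lower together. At 8 months the 31 calls became 26 to 31 over the other settings and 27 to 32 without single libraries, and 26 of the 31 were called in every fit. At 4 months the 8 became 7 to 12 and 2 to 12. The 11 interaction calls between 3 weeks and 8 months became 9 to 15 and 7 to 20, and 7 of the 11 (Ifi204, Ifi27l2a, Ifitm3, Mx1, Oas3, Oasl2 and Rsad2) were called in every fit. Without a filter on low counts the count was 3 at 3 weeks (1 as reported), 1 for the interaction of 4 months with 3 weeks (0), 2 for that of 8 with 4 months (0), 3 for WT at 4 months against 3 weeks (1), 2 for WT at 8 months against 3 weeks (1), 3 for WT at 8 against 4 months (0) and 11 for SgshKO at 8 against 4 months (5). DESeq2 gave 1, 1, 2 and 1 for the interactions of 4 months with 3 weeks and of 8 with 4 months, for WT at 4 months against 3 weeks and for WT at 8 against 4 months, 4 with Mitf (2 as reported) and 2 with Tfe3 knockdown (0). The deposited batch-corrected signal gave 4 with Mitf and 1 with Tfe3. A term for Ddx3y minus Xist left 0 in both WT comparisons with 3 weeks, and TPM left 0 for WT at 8 months against 3 weeks with either pseudocount. The causes of these changes were not tested.

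Same-numbered age series libraries did not deviate together (correlations −0.171 to 0.115 at 3 weeks, 0.029 at 4 months and −0.060 to 0.055 at 8 months), so the samples share only a number there. A replicate block gave 2 at 3 weeks, 0 in both WT comparisons with 3 weeks and 29 at 8 months. In the WT antisense libraries same-numbered pairs had correlations of −0.033 to 0.640, and without the replicate block 0 members were called with Mitf. In SgshKO antisense libraries the count of 19 was 5 in grp 1 only and 12 in grp 2 only, with fewer samples in each, and 19 with a replicate block. Without single libraries the counts were 0 to 3 at 3 weeks, 0 for the interaction of 4 months with 3 weeks, 0 to 1 for that of 8 with 4 months, 0 to 2 for WT at 4 months against 3 weeks, 0 to 1 for WT at 8 months against 3 weeks, 0 to 2 for WT at 8 against 4 months, 7 to 11, 22 to 29 and 0 to 9 for SgshKO at 4 months against 3 weeks, 8 months against 3 weeks and 8 against 4 months, 0 to 8 with Mitf, 0 with Tfeb, Tfe3 and ntc against PBS, and 16 to 21 with the combination. No named member that was called with all libraries reversed its direction in the other fits of that comparison. Members not called were left out of that check, and Slfn2 at 8 months changed sign without WT replicate 4. On the TPM scale the median of all genes at 8 months shifted to −0.11 with a pseudocount of 1 and −0.13 with 0.1.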
